A study of Mus musculus with 11 samples.

Results

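Marker genes of microglia, macrophages and other myeloid cells were read in RNA-Seq libraries of purified cerebellar granule cell precursors (GCps) at P7. The 34 genes were chosen by name as known markers of these cells, and all 34 were among the 38924 genes of the count files and among the 16436 genes that passed the expression filter and were tested. They comprise 10 markers of homeostatic (resting) microglia, 13 genes shared by most myeloid cells (called pan-myeloid here), the 3 chains of complement C1q, 3 macrophage genes and 5 genes linked to microglial activation. The comparison was between 2 cko libraries (Math1-Cre Chd7fl/fl) and 2 control libraries. The control genotype is Chd7fl/+ in the labels of the RNA-Seq samples and in the paper, whereas the submitters' extraction notes name 2 floxed alleles without Cre. All mice were on a C57Bl/6J background, cerebella of a genotype were pooled after lobules IX and X had been taken off, and GCps were enriched from papain-digested tissue on a Percoll gradient. The Math1-Cre transgene acts in the granule cell lineage, and is not known to act in microglia.

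Microglia are the resident macrophages of the brain. They enter it from the yolk sac before birth, depend on signaling through the receptor CSF1R and clear dying cells and synapses during postnatal development. In the resting state they carry purinergic and chemokine receptors that survey their surroundings. Activated microglia, and the amoeboid cells found in white matter of the young cerebellum, lower part of this set and raise genes of lipid handling and phagocytosis. A density gradient enriches small granule cells and does not select against a surface marker, so myeloid RNA can remain in such a preparation. In bulk RNA, fewer microglia and less RNA per microglial cell cannot be told apart.

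The transcription factor PU.1 binds GGAA-containing sites and is central to the identity of these cells. Upstream letters are shown for the members that hold its preferred site within the 250 bases before a start site listed by RefSeq (GRCm38.p6). The set of start sites used here held 26 of the 34 members. It lacked Csf1r, Tmem119, Gpr34, Tyrobp, Cd14, Spi1, C1qa and Adgre1, which were therefore not searched. The letters GAGGAAGT, searched on both strands, were found upstream of 2 of the 26 members (7.69%), C1qc and Spp1, against 2.79% of 27025 genes. Each sequence runs 5′ to 3′ on the strand of the gene and ends at the base before the start, with the site in capitals. The C1qc window is chr4:136892915-136893164 on the minus strand, and its site reads on the opposite strand. The Spp1 window is chr5:104434861-104435110 on the plus strand.
C1qc: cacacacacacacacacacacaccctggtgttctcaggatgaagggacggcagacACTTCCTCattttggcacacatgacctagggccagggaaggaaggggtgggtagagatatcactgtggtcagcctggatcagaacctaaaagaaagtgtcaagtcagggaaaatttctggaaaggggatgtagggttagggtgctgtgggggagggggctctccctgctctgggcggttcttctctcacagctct
Spp1: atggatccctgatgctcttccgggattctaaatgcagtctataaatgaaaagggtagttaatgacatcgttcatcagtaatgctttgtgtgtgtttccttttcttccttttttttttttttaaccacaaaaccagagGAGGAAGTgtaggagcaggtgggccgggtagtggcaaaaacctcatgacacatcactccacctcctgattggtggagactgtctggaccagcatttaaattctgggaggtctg
The composite PU.1-IRF site, whose letters overlap part of the first, was found upstream of 0 of the 26 members and 0.204% of all genes. The AP-1 site TGACTCA was found upstream of 2 members, Cd68 and Itgax, and of 5.16% of all genes. These are matches of letters only.

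Total counts were between 61836588 and 77346481 per library. Each member had between 105 and 19882 reads in a library, so that counting error alone came to at most 9.76% of a value. The tissue label was checked on 9 granule precursor genes such as Atoh1 and Barhl1, all detected. They had a summed level of 4257 and 4825 CPM (counts scaled to a common total with TMM factors) in cko and 4883 and 4954 CPM in control replicates 1 and 2. Their sum was thus lower in both cko libraries, while 5 of the 9 were above 0 (median log2 fold change 0.22). In edgeR's quasi-likelihood test 0 passed and 4 had an unadjusted p under 0.05, and DESeq2 called 1, Neurod1. Chd7 itself was at 392 and 355 CPM in cko and at 322 and 319 CPM in control libraries (0.22 on the log2 scale, with edgeR's quasi-likelihood test giving an adjusted p of 0.418). The files count reads over the whole gene, so this value does not check the deletion, and the direction of each difference rests on the labels. Sex-linked RNA was not balanced between the genotypes. Xist, expressed from the inactive X chromosome of females, had 793 and 0.114 CPM in cko replicates 1 and 2, against 0.548 and 0.182 CPM in control replicates 1 and 2. The Y-linked gene Ddx3y had 0 and 68.2 CPM in cko replicates 1 and 2, against 69.1 and 63.7 CPM in control replicates 1 and 2. By these values cko replicate 1 was female and the other 3 libraries mainly male, so that the cko libraries came from different animals. For the control libraries the labels do not say whether they did, and the spread between them may be technical. The part of sex in the results was not tested.

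Microglial RNA was present in all 4 libraries, and no marker gene passed the test between genotypes. Of the 34 members, 0 passed an adjusted p of 0.05 in edgeR's quasi-likelihood test, adjusted over all 16436 genes, of which 260 (1.58%) passed, 133 (0.809%) higher and 127 (0.773%) lower. At an unadjusted p under 0.05 there were 5 members, or 14.7%, beside 13.6% of all tested genes. Of these, Sall1 and Mrc1 were higher (5.88%, beside 7.36% of all genes) and Gpr34, Cd9 and Spp1 lower (8.82%, beside 6.21%). DESeq2 called 1 member, Sall1 (2.94%, beside 5.34% of all genes). The lowest adjusted p was 0.145, for the same gene. The members' median log2 fold change was 0.04, beside 0.00 over all tested genes. There were 19 members above 0 (55.9%, beside 49.9% of all genes) and 15 below, and Sall1 was the 1 member (2.94%) beyond 0.5 in size, beside 14.8% of all genes. The fold changes ran between -0.36 and 0.50 on the log2 scale. For 33 of the 34 members the whole 95% interval lay within a 2-fold change either way, and for 19 within a 1.5-fold change. These intervals cover counting error and library spread only. They may be too narrow if the control libraries did not come from separate animals, so they do not bound a missed difference between genotypes. For single values, 2 against 2 libraries allow an exact two-sided permutation p of no less than 0.333.

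**Figure D1:**
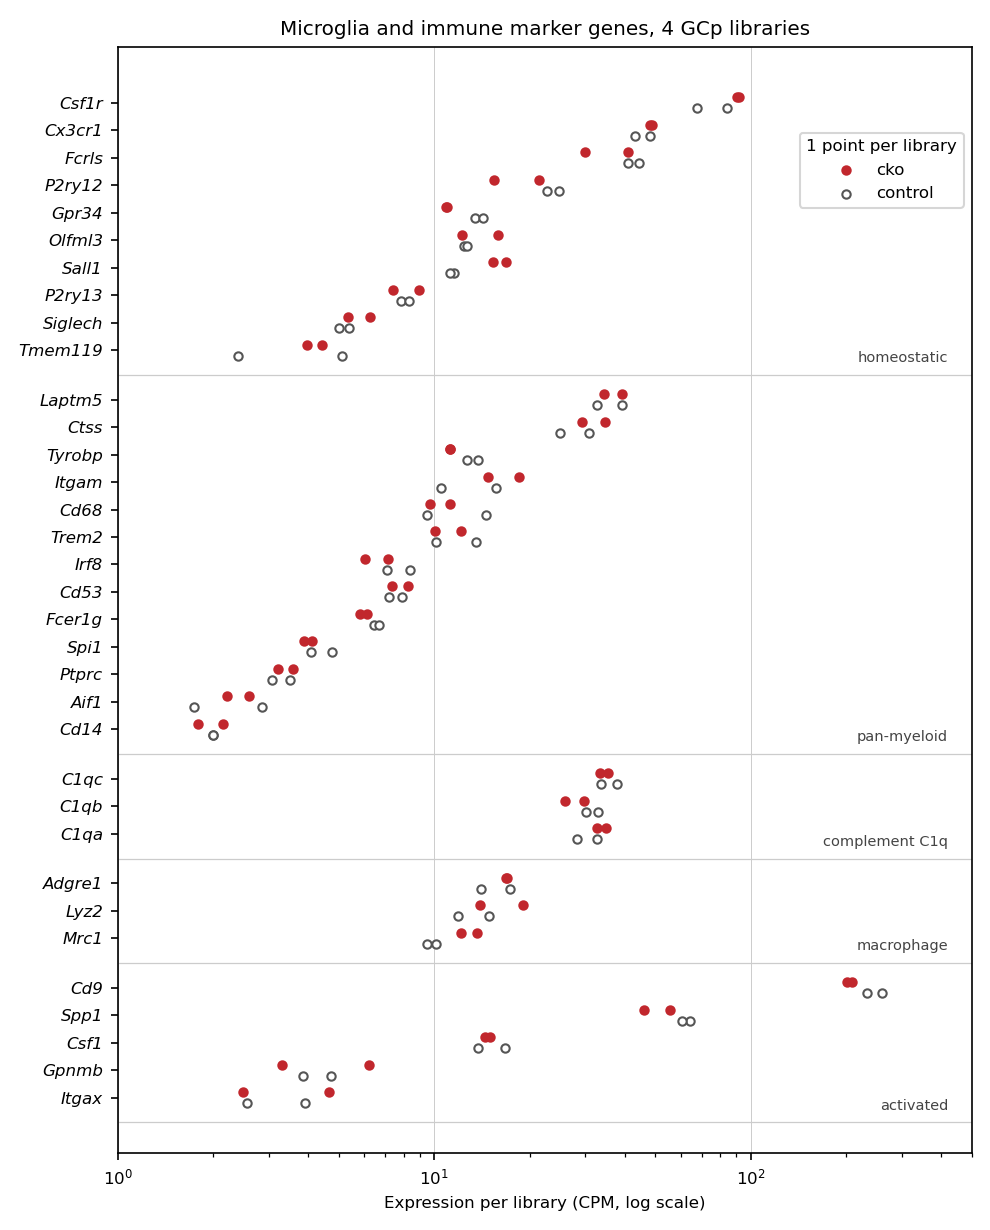
Expression in CPM (log scale, horizontal axis) of the 34 members by class (vertical axis), with 1 point per library, filled red for cko and open gray for control. Levels range from 1.74 CPM for Aif1 to 259.6 CPM for Cd9. The genotypes do not overlap for 12 genes (35.3%, beside 43.9% of all tested genes).

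CSF1R, the receptor that microglia need to survive, is activated by the cytokine encoded by Csf1. Csf1r had 91.8 and 90.5 CPM in the cko libraries, against 84.2 and 67.4 CPM in the control libraries. Both cko libraries were above both control libraries, and the control libraries were farther apart than the cko libraries. The log2 fold change was 0.26 (95% interval -0.03 to 0.56), with an adjusted p of 0.433 by quasi-likelihood in edgeR. Reads of Csf1r are uncertain because 15.1% of its exonic length is shared with Hmgxb3 on the other strand and it is not known whether reads were counted by strand. Its ligand gene Csf1 had 15.0 and 14.5 CPM in cko libraries, against 13.7 and 16.7 CPM in control libraries, and these values overlap (log2 fold change -0.04, 95% interval -0.39 to 0.31). Il34, the other ligand gene of this receptor, was near 1 CPM (1.05 and 1.24 in cko, 1.02 and 0.895 in control libraries).

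The transcription factors of the lineage were PU.1 (Spi1), IRF8 and SALL1. Spi1 had 4.11 and 3.87 CPM in cko libraries, against 4.74 and 4.09 CPM in control libraries. Irf8 had 7.12 and 6.06 CPM in cko libraries, against 8.41 and 7.11 CPM in control libraries. Both genes overlapped between the genotypes, with log2 fold changes of -0.15 (95% interval -0.60 to 0.31) and -0.24 (95% interval -0.66 to 0.19). Sall1, which maintains microglial identity and is also expressed by neural progenitors and other cells, had the largest difference of the 34 members. It had 16.9 and 15.3 CPM in cko libraries, against 11.6 and 11.2 CPM in control libraries, so that the genotypes were clearly apart and each pair of replicates lay close together. The log2 fold change was 0.50 (standard error 0.13, 95% interval 0.18 to 0.82), and its adjusted p was 0.145 by quasi-likelihood in edgeR and 0.0415 in DESeq2. Levels were also set against the summed level of the 28 members not known from other brain cells. On this measure Sall1 was at 3.25% and 2.96% in cko libraries, against 2.14% and 2.37% in control libraries. Many other members were separated on it too, higher or lower, among them Csf1r, Cx3cr1, P2ry12, Gpr34 and the C1q genes. Spi1 and Irf8, which overlapped in CPM, were also separated on it. The share over all tested genes was not computed, so separation on this measure is not read as particular to Sall1. Mrc1 was at 2.33% and 2.63% in cko libraries, against 1.88% and 2.01% in control libraries. Cd9 was at 40.0% and 39.0% in cko libraries, against 48.1% and 49.4% in control libraries. Sall1 lies on chromosome 8 from 89027235 to 89044162 in GRCm38.

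Among the surface receptors of resting microglia, some were higher and others lower in cko libraries, and none passed the test. Cx3cr1, the fractalkine receptor gene, had 48.1 and 48.7 CPM in cko libraries, against 48.0 and 43.1 CPM in control libraries. The genotypes were separated only by the gap between 48.1 and 48.0 CPM (log2 fold change 0.09, 95% interval -0.16 to 0.34). P2ry12, an ADP receptor that directs microglial processes to injury, had 15.5 and 21.5 CPM in cko libraries, against 24.8 and 22.7 CPM in control libraries. Both cko libraries were lower, but they were farther from each other than cko replicate 2 was from either control library, and the log2 fold change was -0.36 (95% interval -0.78 to 0.05, adjusted p = 0.445 by quasi-likelihood in edgeR). Its neighbor P2ry13, a related ADP receptor gene 5389 bp away on chromosome 3, had 7.43 and 8.93 CPM in cko libraries, against 7.87 and 8.34 CPM in control libraries. Its genotypes overlapped, unlike those of P2ry12 (log2 fold change 0.01, 95% interval -0.38 to 0.41). Gpr34, a lysophosphatidylserine receptor encoded on the X chromosome, had 10.9 and 11.0 CPM in cko libraries, against 13.4 and 14.2 CPM in control libraries. It was lower in both cko libraries by a similar amount (log2 fold change -0.34, 95% interval -0.66 to -0.02, adjusted p = 0.327 in the same test). The cko libraries differed in Xist, and the part of sex in the value of Gpr34 was not tested.

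The remaining homeostatic markers were Fcrls, Siglech, Tmem119 and Olfml3. Fcrls, an Fc receptor-like gene, had 40.8 and 30.0 CPM in cko libraries, against 44.2 and 40.9 CPM in control libraries. The genotypes were separated only by the gap between cko replicate 1 and control replicate 2, 40.8 and 40.9 CPM (log2 fold change -0.26, 95% interval -0.65 to 0.12). Siglech, a sialic acid-binding lectin gene, had 5.33 and 6.26 CPM in cko libraries, against 5.39 and 5.00 CPM in control libraries, which overlap. Tmem119, a microglia-specific membrane protein gene, had 3.97 and 4.42 CPM in cko libraries, against 5.12 and 2.40 CPM in control libraries. Its control libraries differed 2.13-fold and enclosed both cko values, and its interval was the widest of all members (-0.71 to 1.01 on the log2 scale). Olfml3, which encodes a secreted protein and is not restricted to microglia, had 15.9 and 12.2 CPM in cko libraries, against 12.4 and 12.7 CPM in control libraries (log2 fold change 0.16, 95% interval -0.23 to 0.56). As a class, the homeostatic markers summed to 257 and 249 CPM in cko libraries, against 257 and 228 CPM in control libraries, a ratio of 1.04, with a median log2 fold change of 0.12, 7 members above 0 and 3 below.

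The C1q genes, which in brain are made mainly by microglia and tag synapses and debris for removal, stand side by side on chromosome 4 within the interval from 136880129 to 136898803. C1qa had 34.8 and 32.6 CPM in cko libraries, against 32.8 and 28.3 CPM in control libraries. C1qb had 25.9 and 29.8 CPM in cko libraries, against 32.9 and 30.2 CPM in control libraries. C1qc, whose upstream letters are printed above, had 33.5 and 35.4 CPM in cko libraries, against 37.7 and 33.5 CPM in control libraries. C1qb alone was separated between the genotypes, and by a narrow gap. The log2 fold changes were 0.14, -0.18 and -0.05, and all intervals lay within -0.47 and 0.43. The 3 chains, which assemble into 1 protein, summed to 94.2 and 97.8 CPM in cko libraries, against 103 and 92.1 CPM in control libraries. Of 15 other complement genes tested, 0 passed in edgeR's quasi-likelihood test or in DESeq2 and 1 had an unadjusted p under 0.05, with a median log2 fold change of 0.24. The receptor gene C3ar1 had 5.55 and 6.44 CPM in cko libraries, against 5.07 and 6.71 CPM in control libraries.

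TREM2 is a lipid receptor through which microglia sense debris and dying cells, and it signals through the adaptor TYROBP. Fcer1g encodes the signaling gamma chain of Fc receptors. Trem2 had 12.2 and 10.1 CPM in cko libraries, against 13.5 and 10.1 CPM in control libraries, with replicate 1 the higher in both genotypes. Tyrobp had 11.2 CPM in both cko libraries, against 12.7 and 13.7 CPM in control libraries. Fcer1g had 6.13 and 5.84 CPM in cko libraries, against 6.44 and 6.68 CPM in control libraries. Tyrobp and Fcer1g were lower in each cko library than in either control library, by small amounts (log2 fold changes -0.24 with a 95% interval of -0.56 to 0.09, and -0.13 with one of -0.52 to 0.25), whereas Trem2 overlapped (log2 fold change -0.09). The kinase gene Syk, which acts below such adaptors, had 6.64 and 5.98 CPM in cko libraries, against 6.11 and 4.69 CPM in control libraries.

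Among the lysosomal and leukocyte genes, which are on in most myeloid cells, all overlapped between genotypes. Ctss, a lysosomal protease gene, had 29.3 and 34.6 CPM in cko libraries, against 30.8 and 25.0 CPM in control libraries. Laptm5, a lysosomal membrane protein gene, had 39.3 and 34.4 CPM in cko libraries, against 39.3 and 32.6 CPM in control libraries. Cd68, a lysosomal marker that rises in phagocytic microglia, had 9.69 and 11.2 CPM in cko libraries, against 9.46 and 14.6 CPM in control libraries. Its highest value was thus that of a control library (log2 fold change -0.20, 95% interval -0.74 to 0.34). The leukocyte antigen gene Ptprc (CD45) had 3.58 and 3.20 CPM in cko libraries, against 3.50 and 3.07 CPM in control libraries. The tetraspanin gene Cd53 had 7.34 and 8.28 CPM in cko libraries, against 7.92 and 7.21 CPM in control libraries. Both leukocyte genes were nearly level, with log2 fold changes of 0.05 and 0.04. Aif1, which encodes the common microglial stain IBA1, had 2.22 and 2.60 CPM in cko libraries, against 2.86 and 1.74 CPM in control libraries. Cd14, a coreceptor for bacterial lipopolysaccharide, had 1.79 and 2.15 CPM in cko libraries, against 2.00 and 2.01 CPM in control libraries. Itgam (CD11b, a complement receptor subunit) had 14.8 and 18.6 CPM in cko libraries, against 15.7 and 10.5 CPM in control libraries. The control values of Aif1 and Itgam differed 1.64-fold and 1.49-fold, and their fold changes of 0.06 and 0.35 on the log2 scale were within that spread. The 13 pan-myeloid genes summed to 149 and 152 CPM in cko libraries, against 157 and 139 CPM in control libraries, with a median log2 fold change of -0.03.

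**Figure D2:**
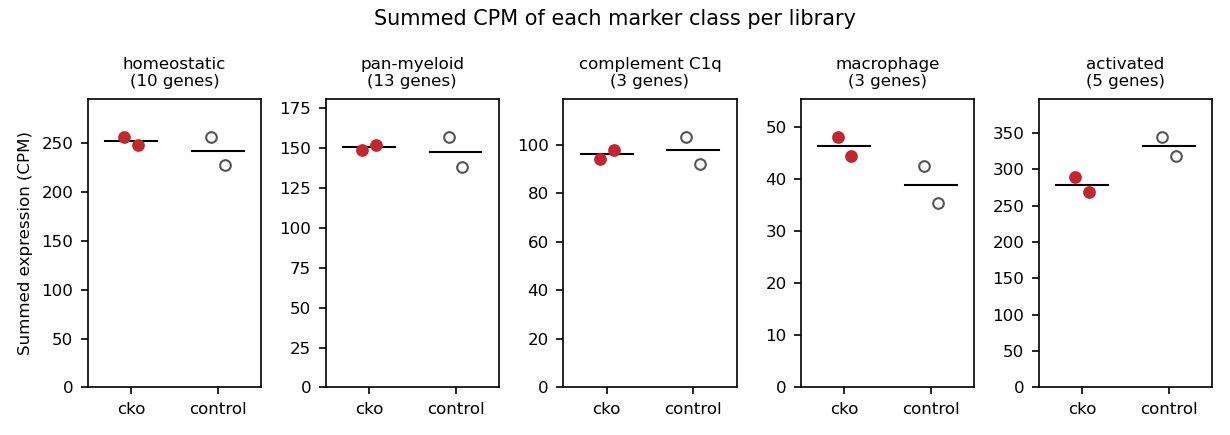
Summed expression in CPM (vertical axis, from 0) of the 5 classes of members in each library, with 1 point per library and a bar at the mean of each genotype. Homeostatic, pan-myeloid and C1q sums overlap between the genotypes, the macrophage sum is higher (48.1 and 44.5 against 42.4 and 35.4 CPM) and the sum of the activation-linked genes is lower (290 and 268 against 345 and 318 CPM) in both cko libraries.

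The macrophage genes were all above 0 on the log2 scale, without a call. Mrc1 (CD206), a mannose receptor gene of macrophages at the brain's borders, had 12.1 and 13.6 CPM in cko libraries, against 10.1 and 9.50 CPM in control libraries. The genotypes did not overlap (log2 fold change 0.39, standard error 0.14, 95% interval 0.05 to 0.74, adjusted p = 0.294 by quasi-likelihood in edgeR). Lyz2, the lysozyme gene of myeloid cells, had 19.0 and 13.9 CPM in cko libraries, against 14.9 and 11.8 CPM in control libraries, and replicate 1 was the higher in both genotypes. Its paralog Lyz1 was at most at 3 reads in a library. Adgre1 (F4/80) had 17.0 and 16.9 CPM in cko libraries, against 17.4 and 14.1 CPM in control libraries, which overlap. The 3 genes summed to 48.1 and 44.5 CPM in cko libraries, against 42.4 and 35.4 CPM in control libraries. Of 14 other genes of border macrophages, 0 passed in edgeR's quasi-likelihood test (2 at an unadjusted p under 0.05, 1 in DESeq2), 7 were above 0 and the median log2 fold change was -0.01. Their sum was 79.7 and 73.1 CPM in cko libraries, against 62.6 and 57.5 CPM in control libraries. The gene that DESeq2 called, Stab1, a scavenger receptor gene that sinusoidal endothelium also expresses, had 45.9 and 34.7 CPM in cko libraries, against 28.0 and 26.1 CPM in control libraries. Stab1 was the largest part of the summed level of these 14 genes, and without it the genotypes overlapped in that sum. The lymphatic and border macrophage marker Lyve1 had 1.48 and 2.29 CPM in cko libraries, against 2.27 and 1.71 CPM in control libraries, and overlapped. Cd163, a hemoglobin scavenger receptor gene, had 0.765 and 1.02 CPM in cko libraries, against 1.57 and 1.48 CPM in control libraries. Of 11 endothelial genes, 10 were above 0, with a median log2 fold change of 0.47, 9 at an unadjusted p under 0.05 and 7 called in DESeq2. Their sum was 396 and 409 CPM in cko libraries, against 306 and 265 CPM in control libraries. Kdr, the main VEGF receptor gene of endothelium, had 85.3 and 76.6 CPM in cko libraries, against 55.3 and 45.5 CPM in control libraries (log2 fold change 0.68, adjusted p = 0.0558 by quasi-likelihood in edgeR). The 1 gene that passed in that test, the transporter gene Slco1a4, went the other way and fell to 3.75 and 4.68 CPM in cko libraries, against 10.3 and 8.78 CPM in control libraries (adjusted p = 0.0415 in the same test). That p was 0.0842 without cko replicate 1, 0.116 without control replicate 1 and 0.123 without control replicate 2. The part of endothelial RNA in the values of Mrc1 and Stab1 was not tested.

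Among the activation-linked genes, the abundant Cd9 and Spp1 were lower in cko libraries, and the rare Gpnmb and Itgax had no direction. Csf1, at a level between these, overlapped between the genotypes, as described above. Cd9, a tetraspanin gene that glia and other cells also express, had 208 and 202 CPM in cko libraries, against 260 and 234 CPM in control libraries. All control values were above all cko values (log2 fold change -0.27, standard error 0.10, 95% interval -0.50 to -0.03, adjusted p = 0.300 by quasi-likelihood in edgeR). Spp1 (osteopontin), a secreted phosphoprotein gene whose upstream letters are printed above, had 55.7 and 45.9 CPM in cko libraries, against 64.2 and 60.4 CPM in control libraries. Its genotypes did not overlap either, and the upper bound of its interval lay next to 0 (log2 fold change -0.29, standard error 0.12, 95% interval -0.58 to -0.0027, adjusted p = 0.364 in the same test). Gpnmb, a glycoprotein gene of lipid-laden phagocytes, had 6.24 and 3.30 CPM in cko libraries, against 3.85 and 4.72 CPM in control libraries. Itgax (CD11c), an integrin gene of dendritic cells and of amoeboid microglia in white matter, had 4.66 and 2.49 CPM in cko libraries, against 3.90 and 2.57 CPM in control libraries. In both of these genes cko replicate 1 was highest and cko replicate 2 lowest of the 4 libraries, with 1.89-fold and 1.87-fold between them. The direction depended on the library: without cko replicate 1 the log2 fold change was -0.37 for both genes, against 0.16 (Gpnmb) and 0.14 (Itgax) with all libraries. Itgax and Itgam are neighbors, 11055 bp apart on chromosome 7, and Itgam did not follow the same order of libraries.

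Set against the homeostatic class, the 5 activation-linked genes had a ratio of summed CPM of 1.13 and 1.08 in cko libraries, against 1.34 and 1.39 in control libraries. This lower ratio rested on Cd9 and Spp1. Cd9 alone made up 74.4% of the class in control libraries, and without both genes the other 3 summed to 25.9 and 20.2 CPM in cko libraries, against 21.5 and 24.0 CPM in control libraries, which overlap. The 10 astrocyte and Bergmann glia markers, a cell class that also expresses Cd9, were lower in sum in cko libraries (828 and 846 CPM) than in control libraries (964 and 1040 CPM), and 0 of 10 passed in edgeR's quasi-likelihood test (4 at an unadjusted p under 0.05, 3 in DESeq2). The 10 oligodendrocyte lineage genes, also of glia, went the other way, at 449 and 470 CPM in cko libraries, against 413 and 365 CPM in control libraries. All 10 were above 0, and 1 of them, Olig2, passed in edgeR's quasi-likelihood test (3 at an unadjusted p under 0.05, 2 in DESeq2). The part of either list in the value of Cd9 was not tested. Of 23 other genes of activated or axon-tract microglia, 1 passed, Lgals1 (galectin-1), which rose to 37.8 and 37.4 CPM in cko libraries, against 18.7 and 16.9 CPM in control libraries (log2 fold change 1.07, adjusted p = 0.0134 by quasi-likelihood in edgeR). Without control replicate 2 its adjusted p was 0.0735. Lgals1 is also expressed by vascular cells, fibroblasts and neurons. Among genes of the same list that are more restricted to myeloid cells, Clec7a, a lectin receptor gene, had 2.17 and 2.03 CPM in cko libraries, against 2.18 and 2.75 CPM in control libraries. Cst7, a cysteine protease inhibitor gene, had 0.259 and 0.228 CPM in cko libraries, against 0.209 and 0.232 CPM in control libraries, which overlap. The median of the 23 genes was -0.14, with 6 above 0.

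**Figure D3:**
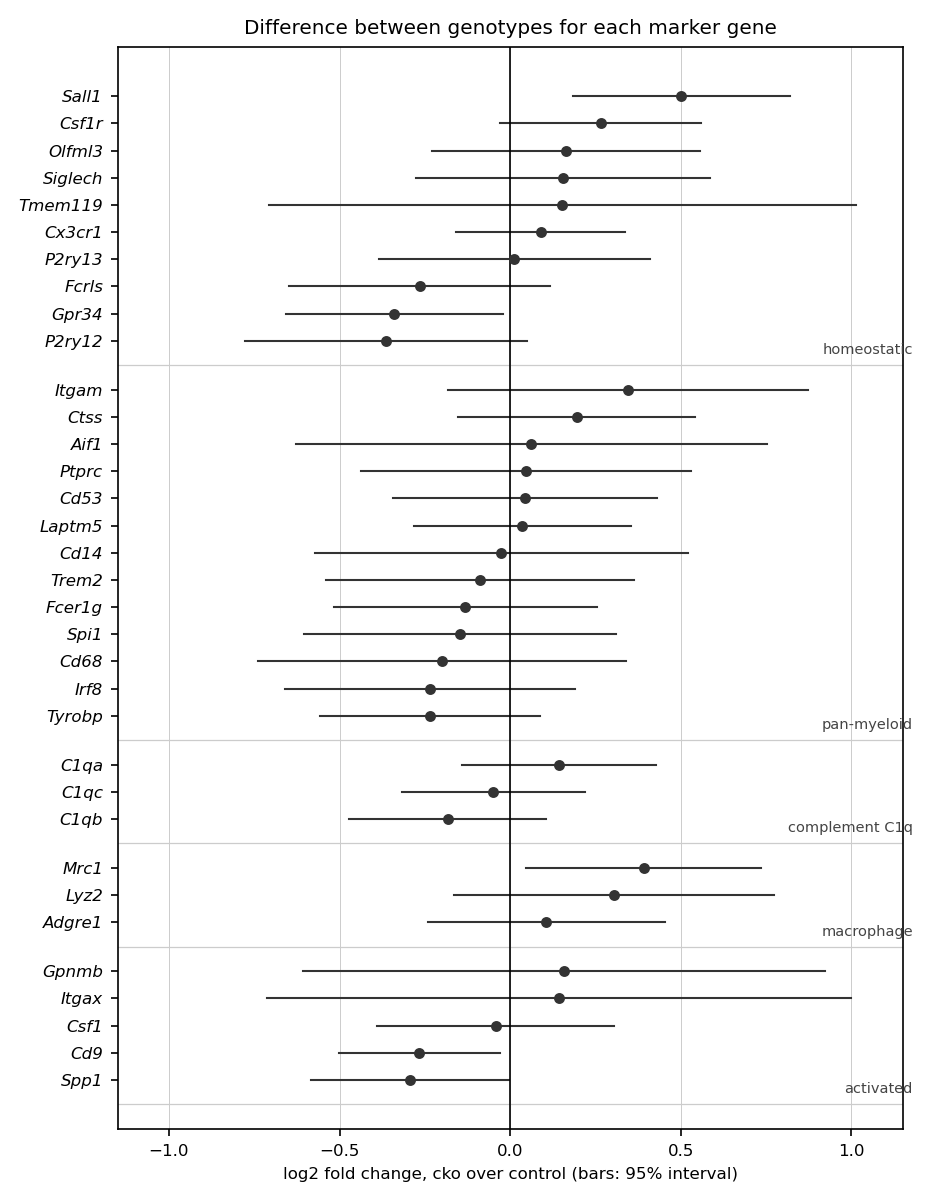
Log2 fold change of cko over control (horizontal axis) of each member (vertical axis, by class), with 95% intervals from edgeR's quasi-likelihood fit as bars. The intervals of 29 of the 34 members span 0, and Sall1 (0.50) and P2ry12 (-0.36) are the extremes.

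The differences between genotypes were similar in size to those between replicates. The median size of the log2 fold change was 0.16 over the members, while the libraries of a genotype differed by a median of 0.20 (cko) and 0.18 (control) on the same scale. Over all tested genes these medians were 0.15, 0.19 and 0.15, so this was not particular to the markers. For 27 of the 34 members, at least 1 pair of replicates differed by more than the genotypes. A difference between 2 single libraries varies more than one between means of 2. The share was not computed over all tested genes, so this count is not read as particular to the markers. The genotypes did not overlap for 12 members (35.3%), beside 43.9% of all tested genes. Of these, 4 were higher in cko libraries (11.8%, beside 22.7% of all genes) and 8 lower (23.5%, beside 21.2%). The control libraries differed in a common direction: 25 of the 34 members were higher in control replicate 1 than in replicate 2, beside 50.1% of all tested genes. In the cko libraries 19 members were higher in replicate 1. For the 28 members not known from other brain cells, the sum was 520 and 518 CPM in cko libraries, against 540 and 473 CPM in control libraries. Both cko libraries thus lay within the range of the control pair, and these genes made up 0.0546% and 0.0510% of all counts in cko libraries and 0.0535% and 0.0461% in control libraries.

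Levels can be compared between genes only per length, here as RPKM (CPM per kilobase of exonic sequence). Cd9 was highest, at 102 and 98.8 RPKM in cko and at 127 and 114 RPKM in control libraries. Spp1 had 30.8 ± 4.22 RPKM in cko and 37.8 ± 1.61 RPKM in control libraries (SD, n = 2 libraries each). C1qa had 32.4 ± 1.51 RPKM in cko and 29.4 ± 3.01 RPKM in control libraries, and Ctss, C1qb, C1qc, Tyrobp, Fcrls and Csf1r were between 13.1 and 29.0 RPKM in control libraries. The surface markers Cx3cr1 (10.8 ± 0.0939 RPKM in cko, 10.1 ± 0.772 RPKM in control libraries) and P2ry12 (7.26 ± 1.66 RPKM in cko, 9.33 ± 0.604 RPKM in control libraries) were in the middle of the range. Ptprc was lowest, at 0.185 ± 0.0145 RPKM in cko and 0.179 ± 0.0167 RPKM in control libraries. Of the 33 pairs of neighbors in the order of control levels, 20 overlapped between their control libraries, so that most adjacent ranks are not separated. For scale, the median of the 9 granule precursor genes was 51.2 RPKM in control libraries.

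Further myeloid genes were examined beside the members. Of 52 other genes of microglia and myeloid cells, 0 passed edgeR's quasi-likelihood test, 7 had an unadjusted p under 0.05 and 3 passed in DESeq2, with 35 above 0 and a median log2 fold change of 0.09. Their sum was 404 and 423 CPM in cko libraries, against 408 and 381 CPM in control libraries. Coro1a, an actin regulator gene of leukocytes and neurons, had 24.0 and 19.9 CPM in cko libraries, against 34.7 and 31.7 CPM in control libraries (adjusted p = 0.0952 in the same test). Its cko values were all below its control values. In a list of 25 tested genes of CSF1R, TREM2 and TGF-beta signaling, Smad3, which transmits TGF-beta signals in many cell types, rose to 42.6 and 41.0 CPM in cko libraries, against 26.2 and 27.5 CPM in control libraries (log2 fold change 0.64, adjusted p = 0.0415), and 24 did not pass. DESeq2 called 2 genes of this list, Smad3 and Tgfb3. Tgfb3, a TGF-beta ligand gene, had 6.95 and 6.08 CPM in cko libraries, against 3.30 and 2.78 CPM in control libraries (log2 fold change 1.10, adjusted p = 0.0519 by quasi-likelihood in edgeR). The adjusted p of Smad3 was 0.0701 without cko replicate 1, 0.176 without control replicate 1 and 0.199 without control replicate 2. Of 17 tested inflammation and interferon genes, 0 passed in the same test or in DESeq2, 2 had an unadjusted p under 0.05 and the median was 0.18. Those 2 were interferon-induced genes. Irf7 had 1.36 and 0.813 CPM in cko libraries, against 0.574 and 0.514 CPM in control libraries (log2 fold change 1.00, adjusted p = 0.264 in edgeR). Oasl2 had 1.39 and 0.683 CPM in cko libraries, against 0.496 and 0.348 CPM in control libraries (log2 fold change 1.29, adjusted p = 0.241 in edgeR). Both were highest in cko replicate 1. The cytokine gene Il1b had 0.545 and 0.862 CPM in cko libraries, against 0.496 and 0.646 CPM in control libraries. Tnf had 0.765 and 1.97 CPM in cko libraries, against 1.20 and 2.01 CPM in control libraries, with replicate 2 the higher in both genotypes.

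RNA of other white blood cells was scarce. The 17 lymphocyte genes summed to 3.48 and 3.33 CPM in cko libraries, against 3.88 and 3.31 CPM in control libraries, and 11 of them did not pass the filter. The 16 genes of neutrophils, monocytes and mast cells summed to 2.54 and 4.02 CPM in cko libraries, against 2.83 and 1.01 CPM in control libraries, and 10 did not pass the filter. Red blood cell genes summed to 31.0 and 28.3 CPM in cko libraries, against 28.4 and 20.4 CPM in control libraries, and so were not scarce (577 to 1197 reads of Hbb-bs per library). Lymphocyte and neutrophil genes with few or no reads included Cd3e, with 3 reads in each cko library, against 4 and 3 reads in control libraries, and Ly6g with 0 reads in both cko libraries, against 1 and 0 reads in control libraries.

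**Figure D4:**
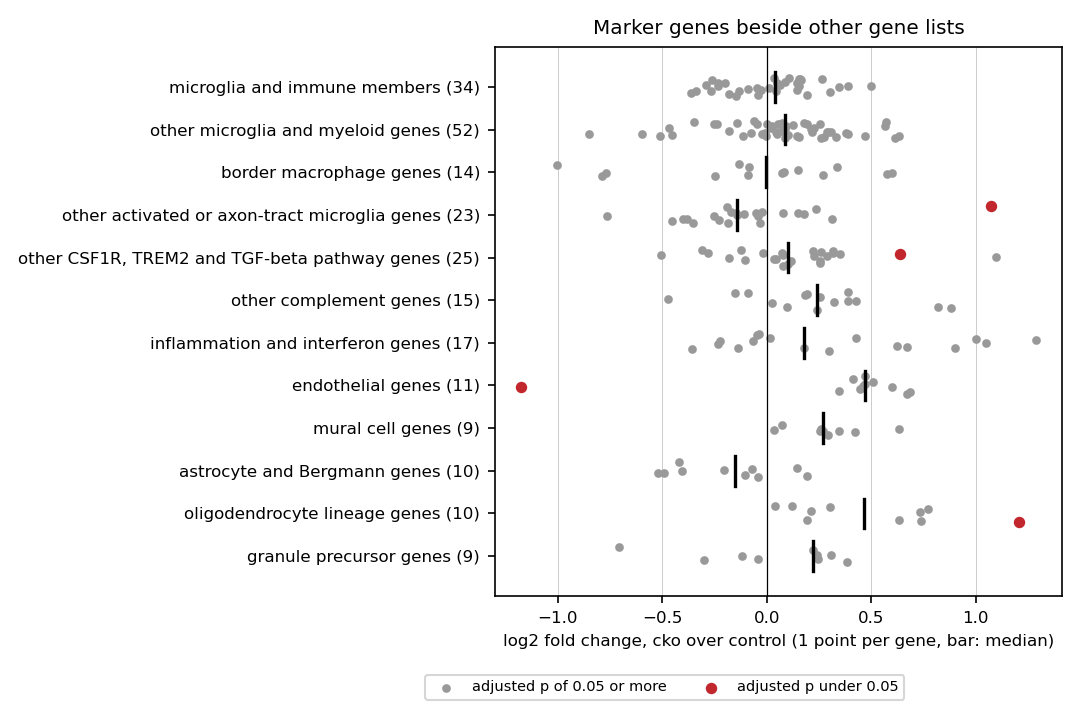
Log2 fold change of cko over control (horizontal axis) of the tested genes of the 34 members and 11 other lists (vertical axis, number of genes in parentheses), with 1 point per gene, red where the adjusted p was under 0.05, and a bar at each median. The members center at 0.04, other myeloid genes at 0.09 and endothelial genes at 0.47.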

How the data were processed

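RNA was sequenced from GCps of P7 cerebella in 2 cko and 2 control libraries. Chromatin samples (6 for ATAC-Seq, 1 for H3K4me1) were not used here. Trimming (Trim Galore 0.4.1), alignment to mm10 (TopHat2 2.0.14) and counting per gene of Ensembl release 75 (HTSeq 0.6.1p1) were done by the authors (intersection-strict mode, alignments of quality under 3 skipped). The deposited values are raw counts per gene, 1 file per library, with 38924 genes. Whether the counting used strand is not stated in these sources. Reads that map equally well to several genes are lost under such counting, so near-identical copies can read low.

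Genes were filtered with filterByExpr, scaled with TMM factors and tested with edgeR 4.0.16 in R 4.3.3 (robust quasi-likelihood test, cko over control, no covariate), with Benjamini-Hochberg adjustment over the 16436 genes tested and a threshold of 0.05. The 95% intervals are the log2 fold change ± the t quantile times its standard error. CPM used TMM-scaled totals, and RPKM divided CPM by the union length of annotated exons in kilobases (GENCODE on GRCm38, which is mm10). The fit was tested on simulated counts. Total counts were 73480074 and 62437759 in cko and 77346481 and 61836588 in control replicates 1 and 2. Intervals from counts cover counting error and library spread only.

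The members and lists, and the motifs, were chosen with earlier results of these data known. Every member was named in the text. From the other lists described, the rule named up to 2 genes per direction that passed the test. Further genes named there (Il34, C3ar1, Syk, Stab1, Lyve1, Cd163, Clec7a, Cst7, Coro1a, Kdr, Tgfb3, Irf7, Oasl2, Hbb-bs, Il1b, Tnf, Cd3e and Ly6g) were chosen after their values were seen. Alternatives were RLE scaling, library totals, no filter, DESeq2 1.42.0, a replicate block and leaving out each library. Of the genes in the files, 37607 had an annotation by their Ensembl ID. Lilrb4a, Hbb-b1, Hbb-b2 and Ahsp had no match by symbol.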

Additional observations from a re-analysis of the deposited data

How the results depend on the processing

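Alternatives to the main fit changed the number of genes called far more than the values of the members. Over all tested genes the count of calls was 260, and it was 727 without a filter on low counts, 878 in DESeq2 and 1010 with a replicate block. It ranged from 83 (without control replicate 2) to 602 (without cko replicate 2) when 1 library was left out. The count of members called was 0 in the main fit, 1 in DESeq2 and 1 with the replicate block, and 0 to 0 when a library was left out. That member was Sall1 both times, with a log2 fold change of 0.49 (adjusted p = 0.0415) in DESeq2 and 0.50 (adjusted p = 0.0437) with the block. Its adjusted p over all alternatives ranged from 0.0415 to 0.563. The replicate numbers are shared by the genotypes, but the labels do not say that they pair the libraries. The block changed no other member's call. With library totals in place of TMM factors, Smad3 (adjusted p = 0.0525) and Slco1a4 (adjusted p = 0.0506) no longer passed in edgeR.

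When each library was left out in turn, the log2 ratio of summed CPM ranged from -0.31 to -0.19 for the activation-linked class, from 0.13 to 0.39 for the macrophage class, from -0.02 to 0.15 for the homeostatic class, from -0.064 to 0.12 for the pan-myeloid class, from -0.11 to 0.06 for C1q and from -0.14 to 0.02 for all members. The median log2 fold change ranged from -0.37 to -0.014, from 0.11 to 0.44, from 0.03 to 0.15, from -0.09 to 0.11, from -0.13 to 0.038 and from -0.042 to 0.12 in the same order. Over these refits the sign held for the activation-linked and macrophage classes in both measures, and for the median of the homeostatic class. With library totals in place of TMM factors, the activation-linked median was 0.0087 (against -0.043), the pan-myeloid median 0.020 (against -0.026) and the C1q log2 ratio 0.022 (against -0.026). With 1 library in a genotype, that library was assumed to vary like the others.

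Among single members, 15 changed sign in at least 1 such refit, none of them called. Their log2 fold changes ranged from -0.039 to 0.27 for Adgre1, -0.25 to 0.47 for Aif1, -0.13 to 0.038 for C1qc, -0.16 to 0.11 for Cd14, -0.045 to 0.14 for Cd53, -0.48 to 0.14 for Cd68, -0.18 to 0.11 for Csf1, -0.37 to 0.54 for Gpnmb, -0.37 to 0.52 for Itgax, -0.091 to 0.17 for Laptm5, -0.029 to 0.34 for Olfml3, -0.12 to 0.15 for P2ry13, -0.045 to 0.14 for Ptprc, -0.29 to 0.80 for Tmem119 and -0.28 to 0.13 for Trem2. With library totals Cd14 was at 0.020 and Csf1 at 0.0087. The cause of these changes was not tested. How many of all tested genes changed sign was not computed, so the count of 15 is not read as particular to the markers. The limits are 2 libraries a genotype, no record of separate animals for the control libraries, 1 cko library of the other sex, and a bulk measure of cells that are a small share of the preparation.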
